A study of Mus musculus with 6 samples.

Results

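The counts of 8 keratin genes, Krt6a, Krt6b, Krt16, Krt17, Krt4, Krt13, Krt1 and Krt10, are described here in mouse corneal epithelial sheets, the layered cell sheet on the front of the eye. The 8 were taken by symbol from a count table of 25006 genes, in which 54 genes carry a keratin symbol, and all 8 had counts in every library. The study holds 3 libraries labelled EphA2 null (EphA2-/-; EphA2 null 1, 2 and 3) and 3 wild type libraries (wild type 1, 2 and 3). Total RNA was taken from isolated epithelial sheets and sequenced on an Illumina HiSeq. Besides genotype and tissue the labels say nothing of the EphA2 allele, the strain or the age. The sample titles carry a number, shared by EphA2 null 2 and 3 and by wild type 1 and 2. A letter of unstated meaning follows the number and differs between libraries that share it. The title numbers fall in a higher range (EphA2 null 2 and 3 and wild type 3) and a lower range (EphA2 null 1 and wild type 1 and 2). Nothing in the labels says what the number stands for. The labels do not state that the libraries come from separate animals, so p-values measure the spread between these libraries, which may be technical.

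Keratins are the intermediate filament proteins of epithelial cells, and each filament is built from type I and type II chains in equal amounts. Among the type II chains here are KRT6A, KRT6B, KRT4 and KRT1, and among the type I chains KRT16, KRT17, KRT13 and KRT10. KRT6A, KRT6B, KRT16 and KRT17 are known as stress keratins, which skin keratinocytes switch on after wounding and in hyperproliferative disease. KRT4 and KRT13 pair in the upper layers of moist, non-cornified epithelia such as the conjunctiva and oesophagus, while KRT1 and KRT10 pair in the upper layers of the epidermis. The corneal epithelium is marked by KRT12, while KRT5 and KRT14 are known as a basal pair.

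The 8 genes lie in the 2 keratin clusters of the mouse genome. In GRCm38 the type I genes are on chromosome 11, Krt10 (ENSMUSG00000019761) from 99385254 to 99389364, Krt13 (ENSMUSG00000044041) from 100117327 to 100121566, Krt16 (ENSMUSG00000053797) from 100246091 to 100248902 and Krt17 (ENSMUSG00000035557) from 100256217 to 100261029. The type II genes are on chromosome 15, Krt6b (ENSMUSG00000023041) from 101676023 to 101680287, Krt6a (ENSMUSG00000058354) from 101689910 to 101694307, Krt1 (ENSMUSG00000046834) from 101845426 to 101850794 and Krt4 (ENSMUSG00000059668) from 101918535 to 101924735. All 8 are protein coding and lie on the minus strand.

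Krt6a and Krt6b are near-identical copies, which bears on how far their counts can be separated. Their coding sequences, without the stop codon, are 1659 and 1662 bases long and are identical at 97.6% of aligned positions, with 40 differing columns. The stretch of 120 coding bases with the most differences is at coding positions 751 to 870, in exons 3 and 4, at chr15:101692490-101692766 for Krt6a and chr15:101678309-101678585 for Krt6b (minus strand). The genomic spans include the intron between these exons. The stretch is shown because reads that cover such differences can be told apart between Krt6a and Krt6b, and capitals mark the 17 bases that differ. It was not compared with other genes.
Krt6a: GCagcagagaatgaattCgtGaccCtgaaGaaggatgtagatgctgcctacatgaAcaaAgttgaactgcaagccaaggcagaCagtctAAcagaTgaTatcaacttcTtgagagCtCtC
Krt6b: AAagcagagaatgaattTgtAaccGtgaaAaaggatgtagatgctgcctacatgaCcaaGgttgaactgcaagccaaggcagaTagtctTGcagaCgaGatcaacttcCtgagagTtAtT
In exon 1, at coding positions 34 to 153, the copies have 0 differences, and the 120 bases there, at chr15:101694096-101694215 for Krt6a and chr15:101680071-101680190 for Krt6b, cannot be assigned to either gene by sequence.
Krt6a and Krt6b: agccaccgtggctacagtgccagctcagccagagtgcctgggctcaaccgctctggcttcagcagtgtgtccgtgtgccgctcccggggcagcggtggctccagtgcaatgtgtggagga
Of all 50-base words of the Krt6a transcript, 62.0% also occur in a transcript of another gene, with Krt6b as the main partner (43.6%). For Krt6b the share was 50.1%, and for Krt16 37.6%, in which the main partner was the unprocessed pseudogene Gm11597 (25.2%), absent from the count table. The other partners of Krt16 were Krt14 and Krt17, and Krt14 had 100129 counts over the 6 libraries against 3199 for Krt16. Krt5, with 3289793 counts, was among the partners of Krt6a and Krt6b. The part that shared reads have in the counts was not tested. Krt17 shared 3.99% of its words and Krt10 2.44%, while Krt4, Krt13 and Krt1 shared none. The levels of Krt6a, Krt6b and Krt16 are therefore uncertain to the extent that the counting program split or dropped shared reads. The sources used here do not name that program. Krt6a and Krt10 also overlap annotated antisense genes, and with no strand setting stated reads of such partners cannot be told apart.

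Krt16 and Krt17 are a less similar pair, identical at 68.9% of aligned coding positions. Their most alike 120 coding bases lie in exon 6, at chr11:100246632-100246751 for Krt16 and chr11:100257455-100257574 for Krt17 (minus strand). They are shown because these genes differed in opposite directions between the title number ranges, and capitals mark the 5 differing bases.
Krt16: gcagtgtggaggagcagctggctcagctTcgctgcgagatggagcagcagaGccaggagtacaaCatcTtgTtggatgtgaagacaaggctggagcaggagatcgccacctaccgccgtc
Krt17: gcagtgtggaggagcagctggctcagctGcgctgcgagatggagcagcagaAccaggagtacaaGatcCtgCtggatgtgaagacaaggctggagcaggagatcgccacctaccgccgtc

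The libraries held between 15308013 and 27586942 counts. Krt12, the defining keratin of the corneal epithelium, had 13064 to 16025 CPM and Krt5 had 22805 to 30668 CPM, where CPM is the count per 1e+06 counts of the library, scaled with TMM factors. Epha2, the targeted gene, showed no loss under the null label: it had 285, 653 and 578 CPM in EphA2 null 1, 2 and 3, against 298, 253 and 563 CPM in wild type 1, 2 and 3. Its log2 fold change was 0.44 ± 0.39 (SE, n = 3 per group; adjusted p = 0.9996, edgeR), and counts per gene do not tell whether 1 exon was lost. Directions by genotype below rest on the label alone. By title number its log2 fold change, higher over lower, was 1.07 (adjusted p = 0.00174, edgeR), and the libraries with higher numbers stand apart from the rest across much of the transcriptome. Of 12847 tested genes, 5740 (44.7%) differed between the title number ranges, whereas 1 (0.00778%) differed between the genotypes (adjusted p under 0.05, edgeR).

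Compared per length of transcript, the 8 keratins differed widely in level. Krt13, Krt6a and Krt6b were the most abundant, at 1701 ± 342, 1527 ± 132 and 1452 ± 147 CPM per kb of merged exons (mean ± SD over 6 libraries). Their library ranges overlapped: Krt13 exceeded Krt6a in 4 of 6 libraries, and Krt6a exceeded Krt6b in 3 of 6. Krt4 followed at 553 ± 231 CPM per kb and lay below the other 3 in each library. Krt17 and Krt16 came next, at 26.3 ± 5.23 and 16.4 ± 14.8 CPM per kb, with Krt17 above Krt16 in 5 of 6 libraries, the exception being EphA2 null 2. Krt10, at 2.67 ± 0.113 CPM per kb, and Krt1, at 1.26 ± 0.151 CPM per kb, were lowest, and Krt10 was above Krt1 in each library. With the longest coding transcript as length in place of merged exons, Krt1 averaged 2.26 and Krt10 2.69 CPM per kb.

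**Figure D1:**
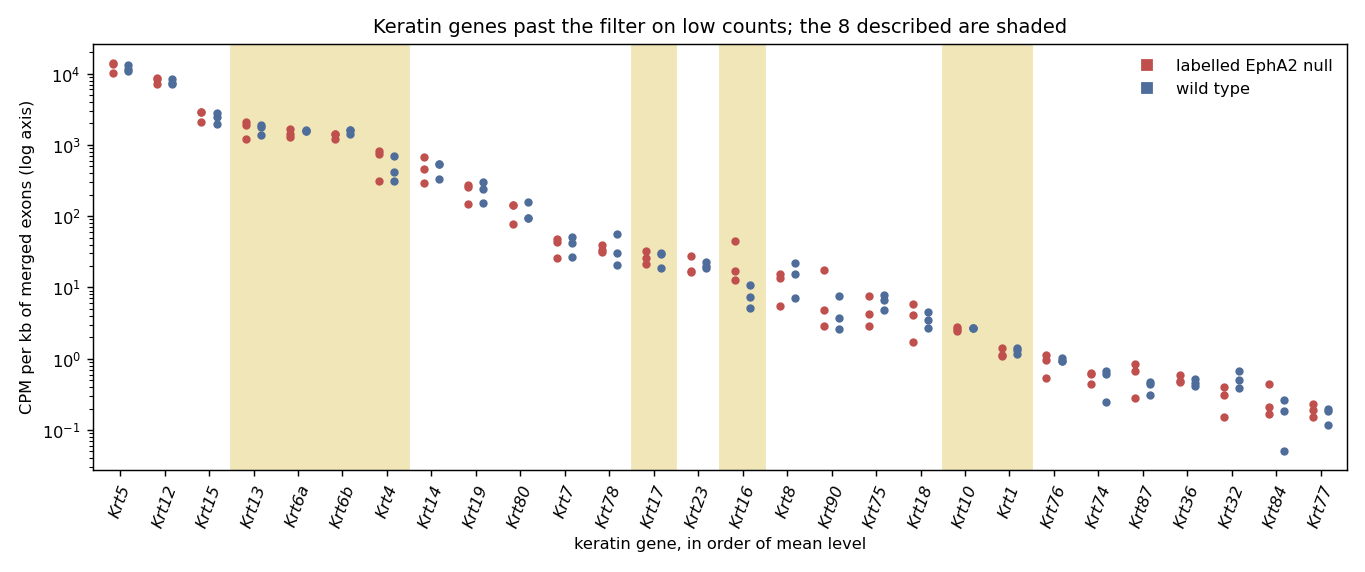
CPM per kb of merged exons (log axis) of the 28 keratin genes that passed the filter on low counts, in order of mean level, with 1 point per library. Krt13, Krt6a, Krt6b and Krt4 stand in places 4 to 7, after Krt5, Krt12 and Krt15, while Krt17, Krt16, Krt10 and Krt1 stand in places 13, 15, 20 and 21.

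Among the 28 keratin genes past the filter, only Krt5, Krt12 and Krt15 had a higher mean level per length than Krt13, Krt6a and Krt6b. Krt5 averaged 12278, Krt12 7877 and Krt15, a basal and limbal type I keratin, 2514 CPM per kb. Krt6a, Krt6b, Krt16 and Krt17 together took 9.78% ± 0.526 of the keratin level per length in the libraries labelled EphA2 null, against 11.2% ± 0.655 in wild type (SD, n = 3 each). The genotypes did not overlap in this share, at 9.29% to 10.3% in EphA2 null libraries and 10.6% to 11.9% in wild type. This share was not tested, and 3.73% of all tested genes showed no overlap between the genotypes. Krt6a and Krt6b make up most of the sum. Krt5 and Krt12, the largest parts of the whole, were higher in EphA2 null 2 and 3 and wild type 3 than in the other libraries. For Krt4 and Krt13 the shares were 8.01% ± 2.68 in EphA2 null libraries and 7.64% ± 1.60 in wild type. Krt1 and Krt10 took 0.0130% ± 0.00143 in EphA2 null libraries and 0.0142% ± 0.00108 in wild type.

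Between the genotypes, none of the 8 keratins passed the test. In edgeR's quasi-likelihood test 0 of 8 had an adjusted p under 0.05, 1 (Krt16) had an unadjusted p under 0.05, and DESeq2 and limma voom also called 0 of 8. Over all tested genes edgeR called 0.00778% (0.00778% higher and 0% lower in the libraries labelled EphA2 null) and DESeq2 0.0467% (0.0311% higher and 0.0156% lower), while 1.18% were under 0.05 before adjustment. The count of keratins called is therefore near the background. The median log2 fold change of the 8 was -0.02, with 4 above 0 and 4 below, beside 0.01 over all tested genes. The 20 other keratin genes past the filter had a median of 0.07, with 0 called by edgeR, DESeq2 or limma voom and 0 at an unadjusted p under 0.05.

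**Figure D2:**
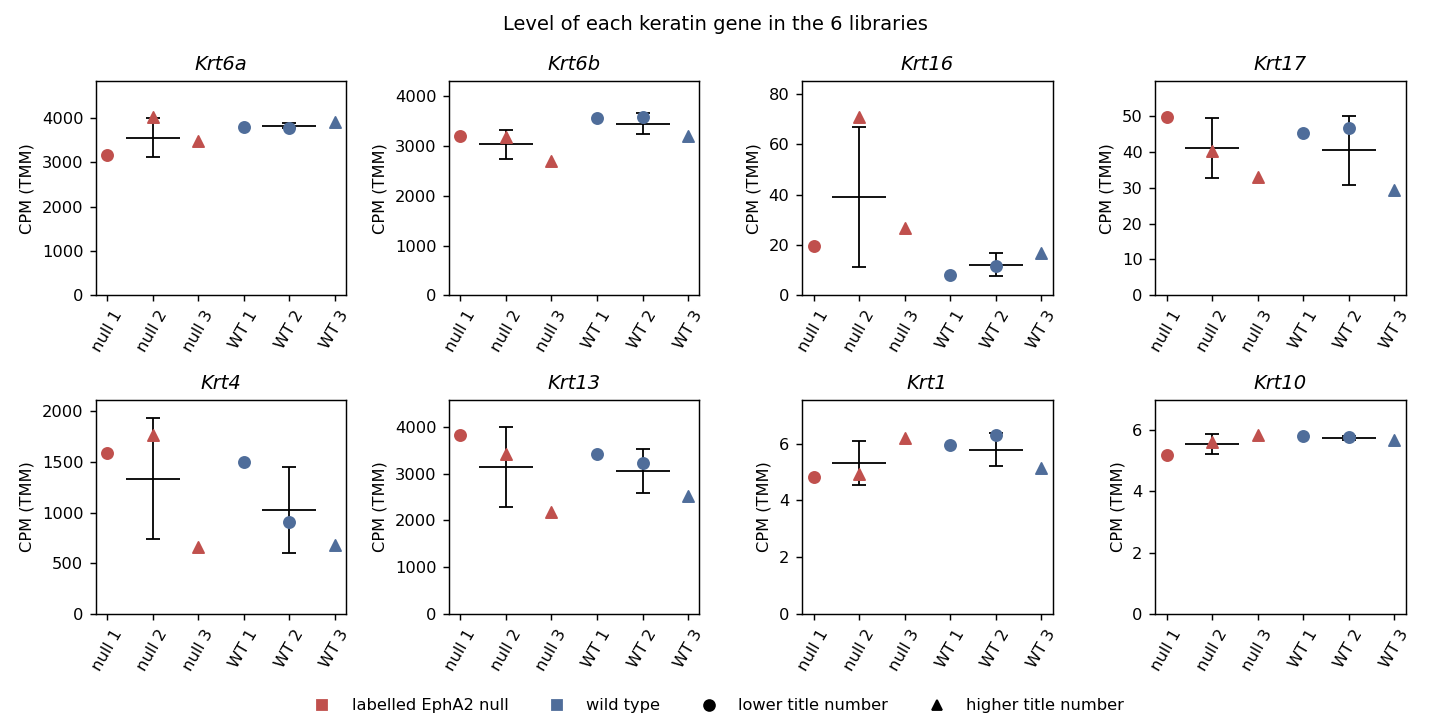
Level of each of the 8 keratin genes in each library in CPM, with the mean and SD of each group of 3 as a black bar. Marker shape gives the title number range; in the Krt16 panel the 3 libraries labelled EphA2 null lie above the 3 wild type libraries, and in the Krt17 panel the 3 libraries with higher title numbers lie below the 3 with lower ones.

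Krt16, the stress-induced type I partner of the KRT6 chains, had the largest difference of the 8. It had 19.8, 70.8 and 26.7 CPM in EphA2 null 1, 2 and 3, against 7.96, 11.5 and 16.9 CPM in wild type 1, 2 and 3. The groups did not overlap, and EphA2 null 2 was far above the other libraries. Over all tested genes 3.73% showed no overlap between the genotypes, 1.71% with the libraries labelled EphA2 null above and 2.02% with them below. The underlying counts were 431, 1440 and 715 in EphA2 null 1, 2 and 3 and 165, 198 and 250 in wild type 1, 2 and 3, with exact 95% counting intervals of 391 to 474 for EphA2 null 1 and 220 to 283 for wild type 3. The log2 fold change was 1.69 ± 0.51 (SE, n = 3 per group), a 3.23-fold difference with a 95% interval of 1.41 to 7.42, and in edgeR's test across all genes its unadjusted p was 0.0121 and its adjusted p 0.9996. Within the higher title numbers it was 1.53 and within the lower ones 1.03, and with the range as a term in the model it was 1.28 ± 0.36 (adjusted p = 0.9996, edgeR). Without EphA2 null 2 the log2 fold change was 0.95 ± 0.33 (adjusted p = 0.9998, edgeR). In bulk RNA, more cells with a transcript and more transcript per cell cannot be told apart.

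Krt17, a type I keratin of wounded and appendage epithelium, was at similar levels in both groups. It had 49.8, 40.3 and 33.0 CPM in EphA2 null 1, 2 and 3, against 45.3, 46.7 and 29.2 CPM in wild type 1, 2 and 3. The groups overlapped, and the lowest value of each belonged to a library with a higher title number. The fold was 1.01 (95% interval 0.693 to 1.49). No difference was detectable within an interval of that width.

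Krt6a and Krt6b, the type II stress keratins, were abundant in both groups. Krt6a had 3158, 4030 and 3476 CPM in EphA2 null 1, 2 and 3, against 3805, 3782 and 3907 CPM in wild type 1, 2 and 3. For Krt6b the levels were 3214, 3194 and 2696 CPM in EphA2 null 1, 2 and 3, against 3575, 3592 and 3201 CPM in wild type 1, 2 and 3. Both genes overlapped between the groups, Krt6b by the margin between EphA2 null 1 and wild type 3. The fold was 0.928 for Krt6a (95% interval 0.738 to 1.17) and 0.878 for Krt6b (95% interval 0.701 to 1.10), with an adjusted p of 0.9996 for each in edgeR.

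Krt4 and Krt13, the mucosal pair, varied among libraries within each genotype. Krt4 had 1587, 1762 and 657 CPM in EphA2 null 1, 2 and 3, against 1498, 902 and 675 CPM in wild type 1, 2 and 3. Krt13 had 3821, 3418 and 2173 CPM in EphA2 null 1, 2 and 3, against 3417, 3235 and 2520 CPM in wild type 1, 2 and 3. EphA2 null 3 and wild type 3 were the lowest for both genes. The fold was 1.30 for Krt4 (95% interval 0.662 to 2.57) and 1.03 for Krt13 (95% interval on the log2 scale -0.51 to 0.59), neither past the threshold (adjusted p = 0.9996 for each, edgeR). For Krt4 a change of more than 2-fold lies within the interval.

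Krt1 and Krt10, the epidermal pair, were the least abundant of the 8 and varied little. Krt1 had 4.82, 4.92 and 6.20 CPM in EphA2 null 1, 2 and 3, against 5.93, 6.29 and 5.13 CPM in wild type 1, 2 and 3. Krt10 had 5.18, 5.61 and 5.83 CPM in EphA2 null 1, 2 and 3, against 5.79, 5.77 and 5.67 CPM in wild type 1, 2 and 3. These levels rest on 76 to 166 counts per library, and the exact 95% counting interval of wild type 3, the shallowest library, is 59.9 to 95.1 for its 76 counts of Krt1. The fold was 0.919 (95% interval 0.664 to 1.27) for Krt1 and 0.965 (95% interval 0.730 to 1.27) for Krt10. The other epidermal markers were at or near 0: of 8, the loricrin gene Lor had 13 counts over the 6 libraries, the filaggrin gene Flg 5, the late epidermal keratin gene Krt2 8 and Flg2 0, and only Krt77 passed the filter. Summed, the 8 markers reached 0.836 to 0.971 CPM in EphA2 null libraries and 0.675 to 0.810 CPM in wild type.

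**Figure D3:**
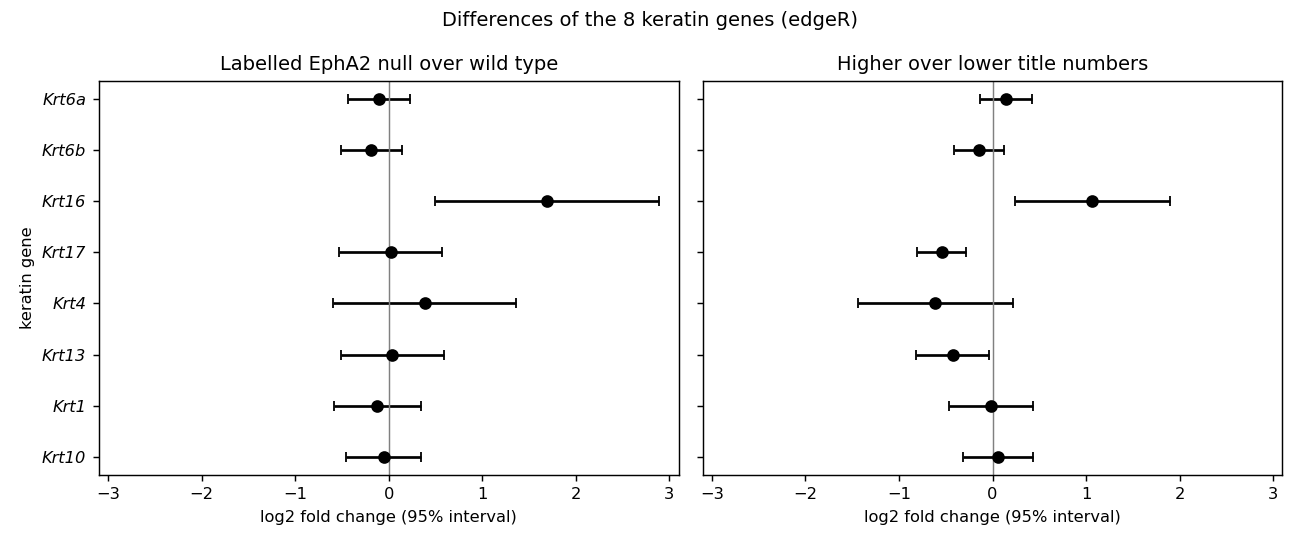
Log2 fold changes of the 8 keratin genes with 95% intervals for single genes (edgeR), for libraries labelled EphA2 null over wild type on the left and higher over lower title numbers on the right. On the left the interval of Krt16 alone does not cross 0, and after adjustment over all genes it did not pass; on the right the interval of Krt16 lies above 0 and those of Krt17 and Krt13 below, of which Krt13 did not pass after adjustment.

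The genotype difference was also compared between the title number ranges. For none of the 8 keratins did the test of this difference pass: 0 of 8 were called in edgeR's interaction test, 0 at an unadjusted p under 0.05 and 0 in DESeq2, with 0 called over all tested genes (percent called 0), 605 (4.71%) at an unadjusted p under 0.05, and 7 called in DESeq2. The interaction of Krt16 was 0.50 ± 0.70 on the log2 scale (SE; adjusted p = 0.9991, edgeR). With EphA2 null 1 the only such library in the lower range and wild type 3 the only one in the higher, the design leaves little to estimate this from.

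Between the title number ranges, with genotype as the other term, 2 of the 8 keratins passed the test in edgeR, 1 in each direction, beside 44.7% of all tested genes (24.6% higher and 20.1% lower). DESeq2 also called 2 of 8, Krt13 and Krt17, both lower, beside 43.4% of all genes (24.3% higher and 19.2% lower). Krt16 was higher in the libraries with higher title numbers, at 38.1 ± 28.7 CPM against 13.1 ± 6.06 CPM in those with lower ones (SD, n = 3 each), and the ranges of the groups overlapped. The difference was 1.07 ± 0.36 on the log2 scale (SE; edgeR adjusted p of 0.0419). Krt17 was lower, at 34.2 ± 5.65 CPM in the higher and 47.2 ± 2.29 CPM in the lower range, without overlap, which is -0.54 ± 0.12 on the log2 scale (SE; edgeR adjusted p of 0.00747). Krt16 is the less stable of the calls: DESeq2 (adjusted p = 0.0960), limma voom (0.0652) and scaling by library totals (0.0509) did not make it. It was also lost without EphA2 null 1 (log2 fold change 0.80, adjusted p = 0.308), without wild type 1 (adjusted p = 0.104), without wild type 2 (1.19, adjusted p = 0.0600) and without wild type 3 (1.28, adjusted p = 0.0807), all in edgeR, and it held at 0.63 (adjusted p = 0.0194) without EphA2 null 2. The call of Krt17 was lost without EphA2 null 1 (-0.66, adjusted p = 0.0504) and without wild type 3 (-0.46, adjusted p = 0.0577), in edgeR.

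Krt4 and Krt13 were not called between the title numbers. Krt4 averaged 1031 ± 633 CPM in the higher and 1329 ± 373 CPM in the lower range, or -0.61 ± 0.36 on the log2 scale (SE; edgeR adjusted p of 0.197). Krt13 averaged 2704 ± 642 CPM in the higher and 3491 ± 300 CPM in the lower range (-0.43 ± 0.17; adjusted p = 0.0726, edgeR). Both passed without EphA2 null 2, with a log2 fold change of -1.02 for Krt4 (adjusted p = 0.00651, edgeR) and -0.57 for Krt13 (adjusted p = 0.00753, edgeR), and Krt13 also passed in DESeq2 (-0.43, adjusted p = 0.0252) and in edgeR with library totals only (-0.55, adjusted p = 0.0190). The other 4, Krt6a, Krt6b, Krt1 and Krt10, had log2 fold changes of 0.15, -0.14, -0.01 and 0.06. Krt6b was without overlap, with the higher title numbers below. With Krt17 it makes 2 of 8 without overlap, beside 59% of all tested genes, 30.1% above and 28.8% below.

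Ratios within a library set the members of a pair beside each other. Krt6a over Krt6b, per length, was 0.908, 1.17 and 1.19 in EphA2 null 1, 2 and 3, against 0.984, 0.973 and 1.13 in wild type 1, 2 and 3. By title number this ratio did not overlap, with 1.16 ± 0.0321 in the higher and 0.955 ± 0.0410 in the lower range (SD, n = 3 each). Neither gene alone was called, and how their shared reads were split is not known. Krt16 over Krt17 was 0.394, 1.74 and 0.802 in EphA2 null 1, 2 and 3, against 0.174, 0.245 and 0.572 in wild type 1, 2 and 3, so the ratio spanned 9.99-fold and its title number ranges did not overlap either. Over all tested genes 59% showed no overlap by title number, and no such share was taken over ratios.

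**Figure D4:**
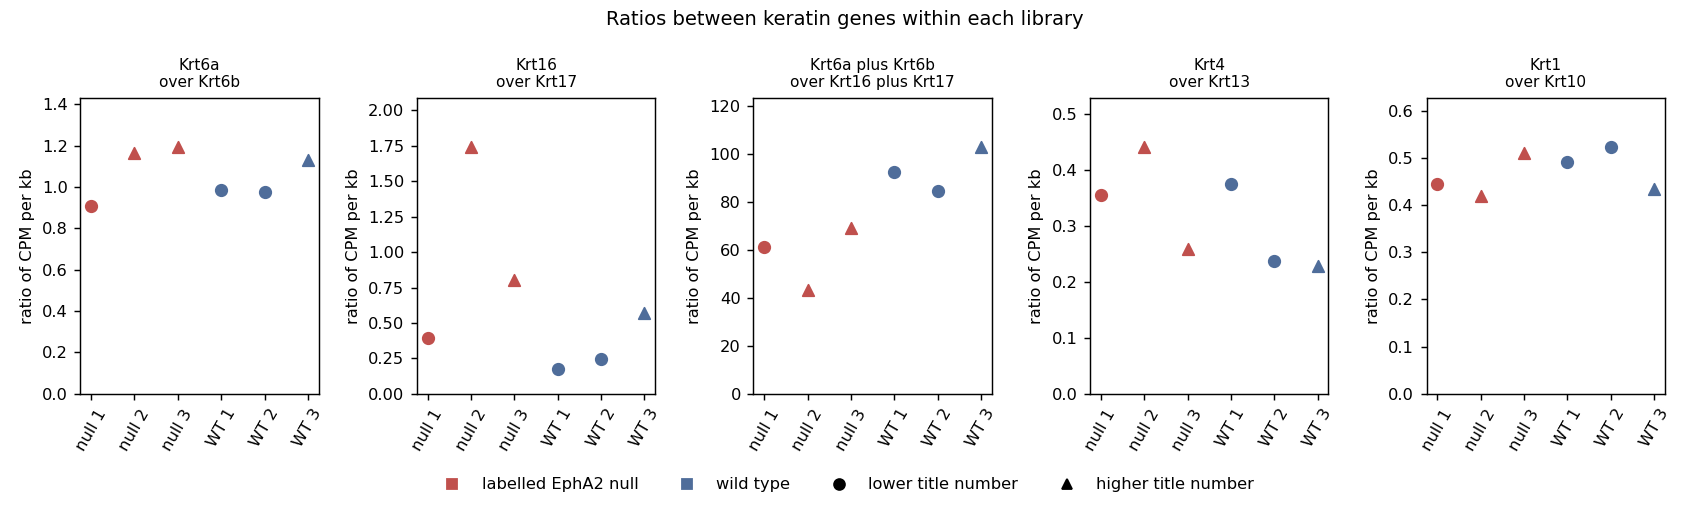
Ratios of CPM per kb between keratin genes within each library, with colour for genotype and marker shape for the title number range. Krt6a over Krt6b runs from 0.908 to 1.19 and Krt1 over Krt10 from 0.420 to 0.522, while Krt16 over Krt17 runs from 0.174 to 1.74.

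Per length, the RNA level of the type II stress keratins was far above that of Krt16 and Krt17. Other type I keratin genes were abundant, with Krt12, Krt15 and Krt13 averaging 7877, 2514 and 1701 CPM per kb. Which chains pair was not measured. Krt6a plus Krt6b over Krt16 plus Krt17 was 61.4, 43.4 and 69.0 in EphA2 null 1, 2 and 3, against 92.5, 84.7 and 103 in wild type 1, 2 and 3. The genotypes did not overlap in this ratio, but they did not overlap for Krt16 alone either, which is in the denominator. Over all tested genes 3.73% showed no overlap between the genotypes, and no such share was taken over ratios. The ratio was not tested because the members were chosen with the Krt16 values known. Krt4 over Krt13 ranged from 0.229 to 0.440 and Krt1 over Krt10 from 0.420 to 0.522, both with overlap between the genotypes and between the title numbers. The level of Krt1 over Krt10 depends on the length used, since the longest coding transcript gives 2.26 CPM per kb for Krt1 and 2.69 for Krt10.

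Markers of other cell types were examined because Krt4 and Krt13 are also conjunctival genes. Of the 11 other conjunctival and goblet cell markers, 9 passed the filter, and between the title numbers 1 was higher and 4 were lower, beside 24.6% and 20.1% of all tested genes. The goblet cell mucin gene Muc5ac had 58.8, 2.21 and 1.68 CPM in EphA2 null 1, 2 and 3, against 38.5, 5.24 and 0.675 CPM in wild type 1, 2 and 3. It fell by 4.95 on the log2 scale in the higher against the lower title numbers (adjusted p = 0.00232, edgeR). Muc5b, another secreted mucin gene, fell by 4.29 (adjusted p = 0.00314) and Agr2, which encodes a disulphide isomerase of mucin secretion, by 1.71 (adjusted p = 0.00240). Krt7, a simple epithelial keratin, fell by 0.63 (adjusted p = 0.0342), whereas Muc4, a membrane mucin gene, was higher by 0.64 (adjusted p = 0.0112), all in edgeR. The summed level of the 11, dominated by Muc4, was 8440 to 9006 CPM in the higher and 5218 to 7204 CPM in the lower range. Between the genotypes 0 of these 9 were called by edgeR, DESeq2 or limma voom and 0 had an unadjusted p under 0.05, and they summed to 6251 to 8832 CPM in EphA2 null libraries and 5218 to 9006 CPM in wild type. Their part in the levels of Krt4, Krt13 and Krt17 was not tested. Leukocyte markers summed to 309 to 357 CPM in EphA2 null and 302 to 348 CPM in wild type libraries, and most of this was Itgam, with 277 to 318 CPM in EphA2 null and 266 to 311 CPM in wild type libraries. Of the 7 tested, Cd52 was higher and Ptprc, Csf1r, C1qa and C1qb were lower by title number, beside the same 24.6% and 20.1% of all tested genes, and these last 4 had at most 1.93 CPM in any library. Stromal markers summed to 0.635 to 1.83 CPM in EphA2 null and 2.04 to 2.27 CPM in wild type libraries, with Kera and Lum, which define corneal stroma, at 0 in all libraries. Vim, the vimentin gene and the only stromal marker past the filter, overlapped between the genotypes, at 0.336 to 1.61 CPM in EphA2 null and 0.540 to 1.78 CPM in wild type libraries, and was lower by title number (-1.94 on the log2 scale, adjusted p = 0.00332, edgeR). Hair follicle keratins summed to 9.75 to 25.3 CPM in EphA2 null and 16.8 to 25.9 CPM in wild type libraries. Nearly all of this was Krt75, which alone passed the filter, with 9.49 to 25.1 CPM in EphA2 null and 15.9 to 25.6 CPM in wild type libraries. For melanocyte markers the sums were 8.63 to 11.3 CPM in EphA2 null and 7.36 to 10.4 CPM in wild type libraries.

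The corneal markers and the genes of proteins that anchor keratin filaments were counted in the same way. Of 8 corneal epithelium markers, 0 were called by genotype (0 at an unadjusted p under 0.05 and 0 in DESeq2), and between the title numbers 2 were higher and 1 lower, a share of calls not above the 44.7% of all tested genes. Aldh3a1, a corneal crystallin enzyme gene, was higher by 0.63 (adjusted p = 0.0146) and Tkt, the transketolase gene, by 0.38 (adjusted p = 0.0373), while Ehf, an epithelial transcription factor gene that is also among the regulators below, had -0.32 (adjusted p = 0.0296), on the log2 scale in edgeR. Of 26 tested filament partners and linkers, 13 were higher and 1, the desmocollin gene Dsc3, was lower (-0.40, adjusted p = 0.0177, edgeR), beside 24.6% and 20.1% of all tested genes, and 12 were not called. Dsp, which encodes desmoplakin, the desmosomal protein that binds keratin filaments, had a log2 fold change of 1.18 (adjusted p = 0.00203, edgeR), with 5973 CPM in the higher and 2801 CPM in the lower range on average. The desmosomal plaque genes Pkp1 and Jup had 1.10 and 1.17, and Ppl, the periplakin gene, 0.83. By genotype 0 of these 26 were called by edgeR, DESeq2 or limma voom and 0 had an unadjusted p under 0.05, and the median was 0.10 on the log2 scale.

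Among 34 tested genes for transcription factors and receptors that act on keratin genes, 21 were higher and 3 (Cebpd, Elf5 and Ehf) lower with the higher title numbers, beside 24.6% and 20.1% of all tested genes. Notch1, whose receptor drives keratinocyte differentiation, had 1.59 (adjusted p = 6.03e-04), the AP-1 subunit genes Fosl2 and Junb 0.94 and 0.92 (adjusted p = 0.00174 for each), and the AP-2 gene Tfap2c 1.01 (adjusted p = 0.00174), on the log2 scale in edgeR. By genotype 0 of 34 were called by edgeR, DESeq2 or limma voom. In edgeR 2 had an unadjusted p under 0.05 (the AP-1 genes Jund at -0.42 and Fos at -0.51), beside 1.18% of all tested genes. The median was 0.10, beside 0.01 over all tested genes. Of 26 tested epithelial genes that respond to wounding and hyperproliferation, the setting in which KRT6, KRT16 and KRT17 rise in skin, 0 were called by genotype in edgeR, DESeq2 or limma voom, 0 had an unadjusted p under 0.05, and the median log2 fold change was 0.15. By title number 3 were higher and 8 lower, beside the same shares of all tested genes. The calprotectin subunit genes differed in opposite directions, S100a8 at 0.98 (adjusted p = 0.0399) and S100a9 at -1.15 (adjusted p = 0.0315), in edgeR. Gjb2, the connexin 26 gene, had 0.88 (adjusted p = 0.00182) and Hbegf, a ligand of the EGF receptor, 0.47 (adjusted p = 0.00433), while the alarmin gene Il33 had -1.14 (adjusted p = 0.00188) and the integrin gene Itgb6 -0.60 (adjusted p = 0.00445), in edgeR. The summed level of the wound list was 970, 1272 and 878 CPM in EphA2 null 1, 2 and 3, against 878, 903 and 910 CPM in wild type 1, 2 and 3, so EphA2 null 2, the library with the highest Krt16, was also highest here. Its part in the Krt16 level was not tested.

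Genes with a pattern most like each keratin were found by the root mean square difference of log2 CPM, each gene centred on its own mean over the 6 libraries. Krt16, whose own spread by this measure was 0.97, was nearest to Prokr2, a prokineticin receptor gene, at 0.30, followed by Has1, a hyaluronan synthase gene, at 0.35 and Mboat2 at 0.36. In each library all 3 had 8.56 CPM or less. Prokr2 had 1.97, 5.17 and 3.32 CPM in EphA2 null 1, 2 and 3, against 0.627, 1.28 and 1.49 CPM in wild type 1, 2 and 3. Krt17 was nearest to Pdp1, at 0.03 of a spread of 0.27, and Krt4 to Nupr1, a stress response gene, at 0.15 of 0.59. Krt13 was nearest to Lgmn, the legumain gene, at 0.06 of 0.28. Krt6a and Krt6b were nearest to serine protease and phosphatase genes, Prss22 at 0.04 of 0.12 and Ptpn18 at 0.03 of 0.14. Krt1 was nearest to Ufsp1 (0.03 of 0.15) and Krt10 to Rhoq (0.01 of 0.05). With 6 libraries such neighbours describe these libraries only.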

How the data were processed

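RNA sequencing counts per gene of 6 mouse corneal epithelium libraries were used, 3 labelled EphA2 null and 3 wild type. The authors deposited raw counts, whole numbers per Ensembl gene identifier with a different total per library, per the file headers and values. The sources used here do not give the aligner, counting program, strand setting, build or annotation. Of 25006 identifiers 24942 matched a symbol in a table of gene names, and GENCODE M21 (GRCm38) gave positions, lengths and transcript sequences. The build was not checked against the authors' own.

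Counts were scaled with TMM factors, filtered with filterByExpr, which left 12847 genes and all 8 keratins, and tested with edgeR 4.0.16 (glmQLFit, glmQLFTest) in R 4.3.3. Genotype was the only term of the genotype comparison, and genotype plus title number range the terms of the title number comparison. P-values were adjusted by Benjamini-Hochberg over all tested genes, with a threshold of 0.05. SE is the log2 fold change divided by the square root of F, and 95% intervals are for single genes. DESeq2 1.42.0 and limma 3.58.1 (voom) were alternatives, besides other scaling and filters, summed copies and each library left out. The edgeR steps were tested on simulated data. Total counts per library ran from 15308013 to 27586942, and counting intervals cover counting error only. No libraries agreed within sampling noise (lowest chi-square over its degrees of freedom 11.2). The members, gene lists and the use of the title number were chosen with earlier results of these data known. Named genes are the 8 keratins, Epha2, the 3 nearest patterns and up to 4 called genes per list by smallest p, with Krt5, Krt12, Krt14 and other keratins of at least 10 CPM. Other genes named (further list genes, markers at or near 0, Gm5478) were chosen after their values were seen.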

Additional observations from a re-analysis of the deposited data

How the results depend on the processing

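Of the 8 genotype differences, 0 were called under any of 16 alternatives. Krt17 and Krt13, both near 0 with genotype alone in the model, changed sign with library totals only (-0.027 and -0.0092). They ran from -0.18 to 0.15 and from -0.13 to 0.24 with single libraries left out. When the model also held the range, Krt17 had 0.22 and Krt13 0.17 in edgeR. Over all genes the genotype count was 6 in DESeq2, 18 in DESeq2 once the range was a term, and 0 in edgeR with libraries of the same title number summed, beside 1 in edgeR.

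By title number, keratins called were 1 in limma voom and 4 without a filter on low counts (Krt4 and Krt13 besides Krt16 and Krt17), beside 2. DESeq2 also called 2, but Krt13 and Krt17. With single libraries left out the number was 0 (without EphA2 null 1 or wild type 3) to 4 (without EphA2 null 2), and over all genes 1103 to 5803, with 1103 without EphA2 null 1, 3549 without wild type 2 and 3702 without wild type 3, beside 5740. Library totals as the only scaling moved the median of all genes to -0.13, beside -0.01, and gave 2449 higher and 3667 lower calls, beside 3154 and 2586; 0 calls in the gene lists changed sign. Values near 0 changed sign: Krt1 to 0.0070 in limma voom, Krt10 to -0.056 with library totals only, and Krt6b to 0.0092 when summed with Krt6a. With libraries left out Krt1 ran from -0.25 to 0.20 and Krt10 from -0.030 to 0.13. The interaction called 0 genes in edgeR and 7 in DESeq2, none of the 8. In the order by level 2 keratins changed place with Krt6a and Krt6b summed, and 0 with the longest coding transcript as length, although the level of Krt1 then was 2.26 against 1.26 CPM per kb. The causes were not tested.

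No paired analysis was possible because the labels give no number shared between the genotypes. Depth limits Krt1 and Krt10, for which the counting interval of a library spans up to 23.2% on either side.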

Other observations

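A protein coding gene on chromosome 15, Gm5478 (ENSMUSG00000095241), which shares sequence with Krt6a and Krt6b, had 1737 counts in EphA2 null 2 and 1211 in wild type 3, against 14 to 53 in the other 4 libraries. In CPM this was 85.5 in EphA2 null 2 and 81.8 in wild type 3, against 0.816 to 1.98 in the others. The libraries with the high level carry different genotypes and title numbers, both in the higher range. Krt90, another type II keratin gene, was also highest in these, with 44.7 CPM in EphA2 null 2 and 19.4 CPM in wild type 3, against 6.64 to 12.2 CPM elsewhere. Krt6a had its highest levels in the same libraries, 4030 and 3907 CPM (81916 and 57867 counts), against 3158 to 3805 CPM in the others. The part of shared reads in these levels was not tested.

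Of the 20 other keratin genes tested, 1 was higher and 2 were lower by title number, beside 24.6% and 20.1% of all tested genes: Krt80, a type II keratin of differentiating epithelia, had a log2 fold change of 0.82 (adjusted p = 0.00174, edgeR), Krt7 -0.63 (adjusted p = 0.0342) and Krt75, known from hair follicles, -0.85 (adjusted p = 0.00786).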
